A study of Mus musculus with 3 samples.

Results

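The interleukin-6 family was followed here through 8 of the 28692 genes in the count tables: the ligands Il6, Lif and Osm, the receptor chains Il6ra, Il6st and Osmr, and the signal genes Socs3 and Stat3. They were taken by symbol, and each was measured in every marker-defined cell class of every library, in barcodes with at least 500 genes and at most 15% mitochondrial UMIs (unique molecular identifiers, the tags that count captured mRNA molecules). The study asked how immune and stromal cells of mouse white fat differ between the stimuli that turn it towards heat-producing beige fat. Its 3 libraries hold the non-adipocyte fraction of inguinal fat from C57BL/6 mice, dissociated with enzymes and run on 10x 3' chemistry. One came from saline-treated mice, one from mice kept in the cold at 4 C for 3 days, and one from mice given CL 316,243, an agonist of the β3-adrenergic receptor, at 1 mg/kg intraperitoneally for 3 days. All groups are of this strain, and the labels name no transgene. The number of animals behind each library, their age, their sex and any pooling are not given in the sources used here.

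Cytokines of this family share the signal chain gp130, which Il6st encodes. Interleukin-6 first binds its own receptor, the product of Il6ra, which can also be shed from the cell surface and act on cells that lack it. Oncostatin M binds gp130 together with the receptor encoded by Osmr, and leukaemia inhibitory factor binds it together with the receptor encoded by Lifr. All 3 activate Janus kinases and then STAT3, which drives Socs3, the inhibitor that binds gp130 and ends the signal. In fat, interleukin-6 is made by stromal cells as well as by immune cells.

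There was 1 library in each group, so no test of a treatment was possible and no p-value is given. Levels are UMIs per 1000000 (CPM) of the UMIs summed over a class, with exact 95% Poisson intervals, and ratios are log2 ratios of those levels with exact 95% counting intervals. These intervals cover counting error only, and a difference between treatments cannot be told apart from one between animals or preparations. After filtering, 6185 saline, 3858 cold and 6641 CL cells remained, with median depths of 3210, 3623 and 3837 UMIs. The libraries shared 11 (saline and cold), 14 (saline and CL) and 9 (cold and CL) cell barcodes. Cell classes were rebuilt from marker genes, with the 8 members left out of the clustering, and are called "X-like" for that reason. The makeup differed widely: monocyte/macrophage-like cells were 16.5% of saline, 5.52% of cold and 53.0% of CL cells, and B-like cells 26.2%, 37.9% and 3.55%. B-like cells served as the measure of free RNA for stromal genes. In the saline, cold and CL libraries they held 3, 1 and 3 Il6 UMIs and 3, 1 and 0 Osmr UMIs.

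The stretches of promoter that carry the best-known control elements of the family are shown for the ligand and the feedback gene on which the results turn. Il6 lies on chromosome 5 at chr5:30013114-30019981, plus strand, and the 250 bases before its start are at chr5:30012864-30013113. Socs3 lies on chromosome 11 at chr11:117966079-117970047, minus strand, and the stretch shown, from 250 to 101 bases before its RefSeq start, is at chr11:117969467-117969616. Both sequences are from RefSeq, build GRCm38.p6, written 5′ to 3′ on the gene's own strand. Capitals in Il6 mark, in order, an AP-1 motif (TGANTCA), a cAMP-response element core (TGACG, here as its reverse complement CGTCA) and a κB motif (GGANTTTCC). Capitals in Socs3 mark a STAT motif (TTCNNNGAA).
Il6: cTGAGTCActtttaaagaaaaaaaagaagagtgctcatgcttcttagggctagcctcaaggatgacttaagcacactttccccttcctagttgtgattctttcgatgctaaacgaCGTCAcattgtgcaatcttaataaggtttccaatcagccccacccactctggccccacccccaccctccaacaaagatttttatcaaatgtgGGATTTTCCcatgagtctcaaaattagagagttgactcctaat
Socs3: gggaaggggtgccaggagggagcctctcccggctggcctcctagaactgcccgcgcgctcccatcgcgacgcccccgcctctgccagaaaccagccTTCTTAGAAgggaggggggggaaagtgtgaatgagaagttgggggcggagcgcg
Searched on both strands, the STAT motif was in 7.02% of 32851 mouse promoter windows of 250 bases, the AP-1 motif in 6.75%, the cAMP core in 17.8% and the κB motif in 1.07%. Of the 7 members with a promoter entry, the STAT motif was in Socs3 alone, the AP-1 motif in Il6 and Lif, the cAMP core in Il6 and Il6ra, and the κB motif in Il6 alone. These matches describe letters in a window, and no binding was measured in these data.

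Among the ligands, Il6 came mostly, by share of UMIs, from fat progenitor-like cells (adipose stem and progenitor cells, marked by collagen and Pdgfra expression). It was lower in these cells in the cold. These cells held 1435 Il6 UMIs in 1232 saline cells, 333 in 600 cold cells and 1289 in 1079 CL cells. This came to 184 CPM (174 to 193) in saline, 76.0 CPM (68.1 to 84.6) in the cold and 180.0 CPM (170 to 190) in CL. The saline and CL libraries overlapped and the cold library lay below both. The log2 ratio was -1.27 (-1.45 to -1.10) for cold over saline and -0.03 (-0.14 to 0.08) for CL over saline. With every cell thinned to 1500 UMIs, 15.7% of saline, 6.93% of cold and 16.7% of CL progenitor-like cells held an Il6 UMI. Without thinning the shares were 35.0%, 16.8% and 37.0%. In B-like cells, which should lack it, the thinned shares were 0.27%, 0.0705% and 1.46%, and the unthinned 0.185%, 0.0684% and 1.27%. Median depths were 6416, 7406.5 and 6516 UMIs in progenitor-like and 1698, 2509 and 1581 UMIs in B-like cells. The shares were thus far above free RNA in all libraries. Left out as too shallow for thinning were 14, 8 and 24 progenitor-like and 511, 42 and 99 B-like cells. The class supplied 87.0% of all Il6 UMIs in saline cells, 86.9% in cold cells and 63.5% in CL cells.

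The progenitor-like class was made of 4 clusters whose weights differed between libraries, and Il6 did not move alike in them. Most saline and cold progenitor-like cells were in cluster 17 (Pi16 and Dpp4, 663 saline, 327 cold and 192 CL cells). The CL cells lay mostly in cluster 22 (Timp1, Prg4 and Lcn2, 45, 0 and 450 cells) and cluster 18 (Gdf10 and F3, 173, 114 and 349 cells). Cluster 22 is thus almost wholly of the CL library and may be that library, not a type. In cluster 17 Il6 stood at 142 CPM in saline, 103 CPM in the cold and 132 CPM in CL. The ratios were -0.46 (-0.68 to -0.24) for cold and -0.10 (-0.39 to 0.17) for CL, the smallest cold difference of the 3 clusters with cold cells. In cluster 18 the levels were 269, 36.4 and 242 CPM, with ratios of -2.89 (-3.48 to -2.34) for cold and -0.16 (-0.36 to 0.05) for CL. In cluster 11, which carries the preadipocyte markers Icam1 and Col15a1 (351, 159 and 88 cells), they were 232, 48.0 and 73.8 CPM. Both ratios there were beyond 2-fold, -2.27 (-2.69 to -1.87) for cold and -1.65 (-2.15 to -1.19) for CL. Cluster 22 stood at 95.4 CPM in saline and 164 CPM in CL. The near-equal class levels of saline and CL were therefore sums over clusters that were lower (11), alike (17 and 18) and higher (22, with 45 saline cells) in CL.

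**Figure D1:**
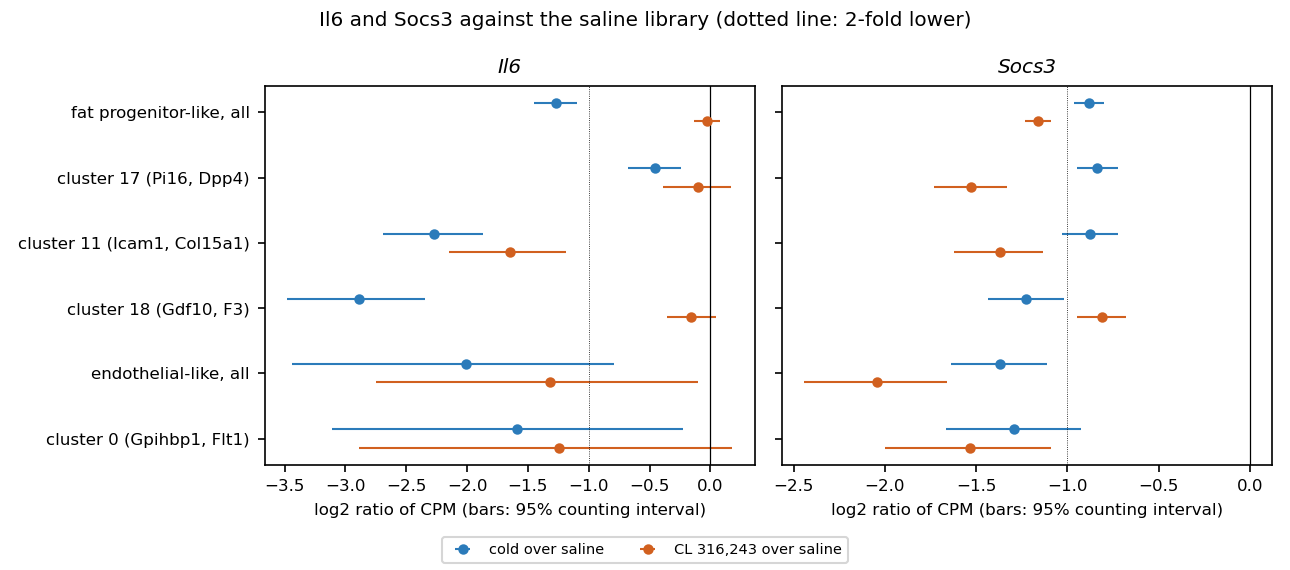
Log2 ratios of CPM against the saline library for Il6 (left) and Socs3 (right) in the progenitor-like and endothelial-like classes and their clusters; blue points are cold, orange points CL 316,243, bars 95% counting intervals, and the dotted line marks 2-fold lower. Il6 in cold ran from -0.46 in cluster 17 to -2.89 in cluster 18, while Socs3 lay below 0 in all 6 groups of cells under both stimuli.

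Mural-like cells (pericytes and smooth muscle, which wrap vessels) also carried Il6. They held 100 Il6 UMIs in 82 saline cells, 3 in 48 cold cells and 12 in 56 CL cells. The levels were 251, 8.05 and 40.8 CPM, so the saline library was the highest of the 3. In saline this was above the 184 CPM of progenitor-like cells, and in cold and CL below their 76.0 and 180 CPM. CL over saline was -2.62 (-3.62 to -1.75). Of the saline UMIs, 5 cells held 50% or more, and without the 5 highest cells of each library the ratio was -5.09. That value rests on very few UMIs, since CL held only 12 before its 5 highest cells were left out. No ratio was formed for cold, with fewer than 50 cells. The summed level of the progenitor marker list in the mural-like class was 1331, 1310 and 1632 CPM, against 54942, 63323 and 38874 CPM in the progenitor-like class itself, and so did not move with Il6. With 12.7% of all 5037 genes measured there beyond 2-fold in CL, 1 of 5 members, Il6, was beyond it.

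Endothelial-like cells held 30, 7 and 7 Il6 UMIs (26.4, 6.55 and 10.6 CPM). Ratios were -2.01 (-3.44 to -0.79) for cold and -1.32 (-2.75 to -0.10) for CL. All 7 cold UMIs came from 1 cell.

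In the CL library Il6 had a further source, the monocyte/macrophage-like cells. They held 23 UMIs in 1020 saline cells, 2 in 213 cold cells and 674 in 3519 CL cells, or 6.97, 2.10 and 49.8 CPM. CL over saline was 2.84 (2.24 to 3.5), and the class supplied 33.2% of the CL library's Il6 UMIs. The share of cells with a UMI was 1.20%, 0.505% and 5.16% after thinning and 1.86%, 0.469% and 9.01% before, at median depths of 3008.5, 3905 and 3805 UMIs. The CL share was above the 1.46% of B-like cells, and the cold share rests on 1 cell. The clusters that made up the class differed: 600 of the 1020 saline and 191 of the 213 cold cells were in cluster 15 (Lyve1, Cd163), and 1414 of the CL cells were in cluster 13 (Spp1, Clec4e). Clusters 12 (Ccr2, Ly6c2; 1017 CL cells), 13 and 16 (Saa3, Lyz1; 959 CL cells) were mostly of the CL library and may be that library.

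Within the class, Il6 was concentrated in cluster 13. There the CL cells held 510 of the 674 UMIs, 103 CPM (93.9 to 112), and the 149 saline cells 4 UMIs, 8.26 CPM, a ratio of 3.64 (2.27 to 5.52). Of the CL cells of this cluster 14.4% held an Il6 UMI (9.59% after thinning), and 40 cells held 50% or more of the UMIs, up to 18 in 1 cell. Clusters 12 and 16 were at 16.1 and 24.5 CPM in CL against 13.5 and 9.34 CPM in saline, and cluster 15 at 2.06 against 3.83 CPM. As a check on RNA from other cells, the progenitor marker list summed to 285 CPM in the 204 CL cells of cluster 13 with an Il6 UMI and to 362 CPM in the 1210 without one. In the 62 cells with at least 3 Il6 UMIs it was 294 CPM. The macrophage marker list was lower in these cells as well, at 4126 CPM without an Il6 UMI, 2733 CPM with one and 2094 CPM with at least 3.

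Osm, the ligand known as a myeloid cytokine, was found in the same class and was higher in CL. Its UMIs numbered 110 in saline, 15 in cold and 1042 in CL monocyte/macrophage-like cells. The levels were 33.3 CPM (27.4 to 40.2), 15.7 CPM (8.80 to 25.9) and 77.0 CPM (72.4 to 81.8), with no overlap between any pair of libraries. CL over saline was 1.21 (0.92 to 1.5) and cold over saline -1.08 (-1.97 to -0.30). The cold ratio shrank to -0.21 with at most 5% mitochondrial UMIs and to -0.23 with coarser clusters, and the CL ratio to 0.72 under the former. After thinning 3.92%, 3.03% and 11.3% of cells held an Osm UMI, and before it 8.53%, 4.69% and 20.6%. In B-like cells the thinned shares were 0, 0.282% and 0, and the unthinned 0.37%, 0.753% and 0.424%. Of all Osm UMIs in cells, this class supplied 42.8% in saline, 9.80% in the cold and 80.2% in CL. Over all cells together, the level was 10.7, 8.39 and 47.1 CPM, which also reflects how many such cells each library holds.

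By cluster, the difference in Osm narrowed. Cluster 13 had 57.8 CPM in saline and 109 CPM in CL, a ratio of 0.92 (0.37 to 1.52). Cluster 12 had 66.0 and 77.0 CPM, 0.22 (-0.24 to 0.71). Cluster 15 had 14.2, 7.43 and 14.4 CPM in saline, cold and CL, and the CL ratio was 0.02 (-1.43 to 1.26). Only cluster 13 thus differed between saline and CL beyond counting error among these 3, and the Lyve1 and Cd163 cells kept the lowest levels. Outside the class, the unnamed cluster 9 (Chil3, S100a8) had 120.0, 66.0 and 101 CPM, type 2 dendritic-like cells 26.1, 28.1 and 24.5 CPM, and migratory dendritic-like cells 15.5, 19.3 and 25.3 CPM. Natural killer-like cells held 0, 8 and 5 Osm UMIs, or 0, 20.9 and 17.3 CPM. Progenitor-like cells held 1, 2 and 10 Osm UMIs and endothelial-like cells 1, 1 and 0.

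**Figure D2:**
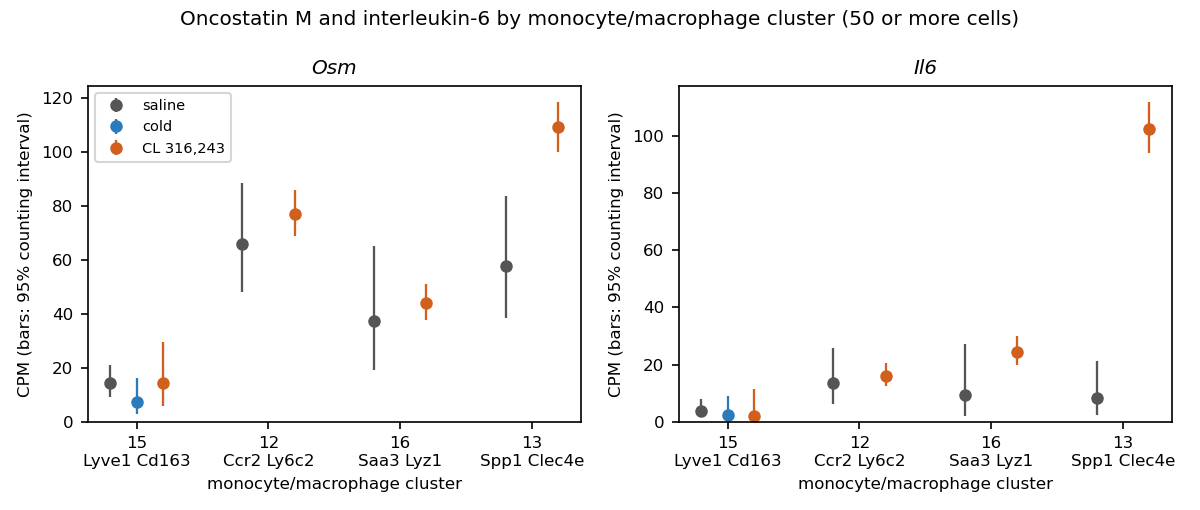
CPM of Osm (left) and Il6 (right) in the 4 monocyte/macrophage-like clusters, grey for saline, blue for cold and orange for CL 316,243, with bars for 95% counting intervals. Cold is drawn only for cluster 15, since the other clusters hold fewer than 50 cold cells; Il6 in CL reached 103 CPM in cluster 13 and stayed at 24.5 CPM or below in the others.

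Across the monocyte/macrophage-like class, 15.5% of 10757 measured genes were beyond 2-fold between CL and saline. Of 6 measured members, 2 (Il6 and Osm) were higher in CL by that much and none lower. For cold over saline 9.42% of 9024 genes were beyond 2-fold, and 2 of 6 members (Il6 and Osm) were lower. The cold value of Il6 rests on 2 UMIs and turned to 0.040 with at most 5% mitochondrial UMIs.

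Lif, the third ligand, was scarce, with 85, 43 and 67 UMIs in all cells of the saline, cold and CL libraries. Progenitor-like cells held 59, 24 and 41 of them. Their levels were 7.55, 5.48 and 5.72 CPM, and both ratios included 0, at -0.46 (-1.21 to 0.25) for cold and -0.40 (-1.01 to 0.20) for CL. A 2-fold fall in the cold lies inside that interval, so the depth does not settle it. T-like cells held 4, 9 and 4 Lif UMIs, and CL cells of cluster 13 held 13. Lif and Osm are neighbours on chromosome 11 (chr11:4257557-4272514 and chr11:4236420-4241026, both plus strand, 16530 bases apart). Monocyte/macrophage-like cells held 18 of the 67 CL Lif UMIs, and migratory dendritic-like cells held both ligands.

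The receptor chains divided between compartments. Il6ra was a transcript of myeloid cells first. Monocyte/macrophage-like cells held 790, 214 and 2191 UMIs, or 239, 224 and 162 CPM, with CL over saline at -0.56 (-0.68 to -0.45). The libraries differed in their clusters here too. Within cluster 15 the levels were 277, 238 and 263 CPM and the CL ratio was -0.07 (-0.36 to 0.21), while clusters 12, 13 and 16 were at 165, 162 and 145 CPM in CL. In type 2 dendritic-like cells Il6ra was near level at 156, 155 and 161 CPM. T-like cells held 187, 149 and 20 UMIs, 137, 98.6 and 62.0 CPM, a CL ratio of -1.15 (-1.89 to -0.48). Plasmacytoid dendritic-like cells went the other way, with 55.7, 76.3 and 109 CPM.

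In progenitor-like cells Il6ra was lower, at 80.3, 65.8 and 45.1 CPM, with a CL ratio of -0.83 (-1.03 to -0.64). The difference was smaller within cluster 17, where the levels were 104, 92.0 and 84.7 CPM and the CL ratio -0.30 (-0.65 to 0.04). In cluster 11, Il6ra was at 55.1, 36.9 and 12.6 CPM, a CL ratio of -2.13 (-3.47 to -1.04). Endothelial-like cells had little, at 17.6, 11.2 and 12.1 CPM.

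Il6st, the shared gp130 chain, was found in every class of at least 50 cells, least in natural killer-like cells (3, 2 and 2 UMIs), and was highest in endothelial-like cells. Their UMIs numbered 589, 379 and 199, giving 518, 355 and 300.2 CPM. Cold over saline was -0.55 (-0.74 to -0.36) and CL over saline -0.79 (-1.03 to -0.55), so the saline library was highest. The capillary genes Gpihbp1 and Flt1 mark cluster 0, where Il6st was 423, 292 and 255 CPM. Cluster 1, with the vessel and lymphatic genes Vwf and Prox1, had 662, 692 and 820.5 CPM in 111, 44 and 23 cells and did not share that order. Over the progenitor-like class Il6st was almost level, at 227, 250 and 238 CPM, with ratios of 0.14 (0.03 to 0.25) and 0.07 (-0.02 to 0.17). Its clusters were not all level in CL. The CL ratio was -0.38 (-0.70 to -0.07) in cluster 11, -0.31 (-0.50 to -0.12) in cluster 18 and -0.02 (-0.26 to 0.20) in cluster 17. Monocyte/macrophage-like cells were at 53.0, 44.0 and 32.5 CPM.

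Osmr, the oncostatin M receptor, lay almost wholly in stromal and vascular classes in these libraries. Endothelial-like cells were at 181, 106 and 146 CPM (206, 113 and 97 UMIs), mural-like cells at 111, 140 and 81.6 CPM and progenitor-like cells at 56.7, 43.4 and 57.9 CPM. Monocyte/macrophage-like cells, the class with most Osm UMIs in saline and CL but not in the cold, had 6, 1 and 6 Osmr UMIs. This was 1.82, 1.05 and 0.443 CPM, near the B-like level of 0.919, 0.207 and 0. Ligand and receptor thus lay mostly in separate classes. In endothelial-like cells Osmr was lower in the cold at -0.78 (-1.12 to -0.44) and CL was at -0.31 (-0.67 to 0.05). Cluster 0 showed it most, at 220.1, 96.6 and 149 CPM, a cold ratio of -1.19 (-1.59 to -0.80). In progenitor-like cells the cold ratio was -0.39 (-0.64 to -0.14) and the CL ratio 0.03 (-0.16 to 0.23). By cluster the CL ratio was -0.73 (-1.41 to -0.11) in cluster 17, -0.06 (-0.55 to 0.41) in cluster 11 and 0.19 (-0.22 to 0.61) in cluster 18.

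**Figure D3:**
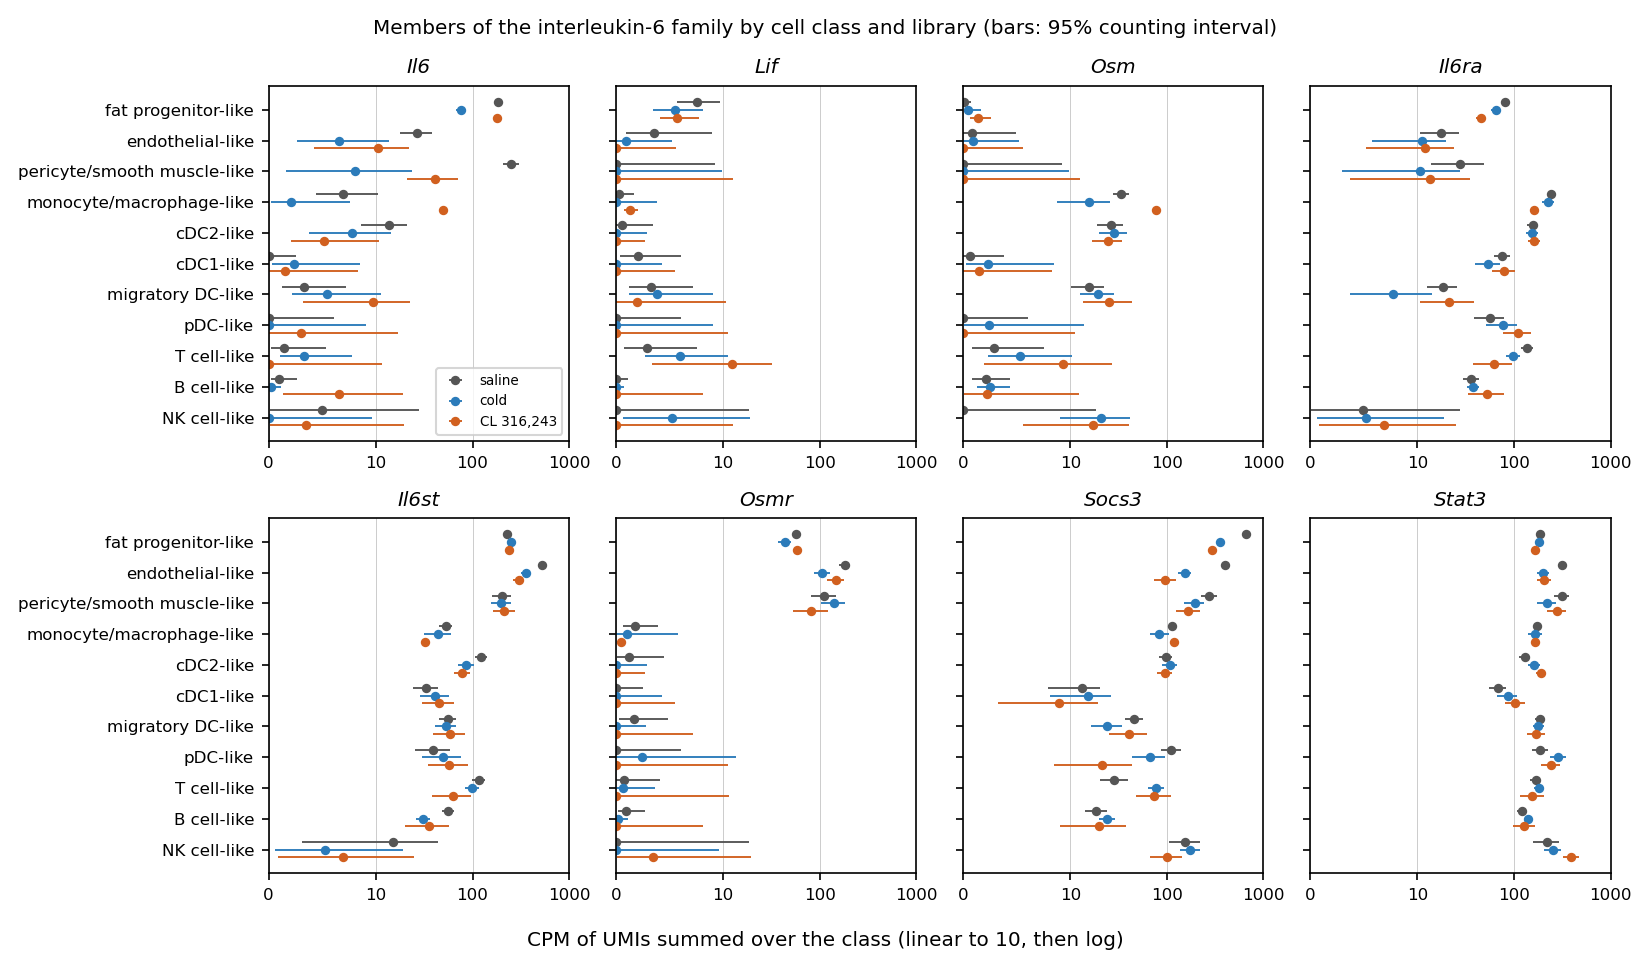
CPM of each of the 8 members in 11 cell classes, grey for saline, blue for cold and orange for CL 316,243, with bars for 95% counting intervals on an axis that is linear to 10 CPM and logarithmic beyond. Osm sits mostly in the myeloid classes and Osmr in the stromal and vascular ones. Natural killer-like cells reach 20.9 CPM of Osm in the cold, from 8 UMIs. Socs3 in progenitor-like cells is highest in saline at 658 CPM.

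Socs3, the feedback inhibitor, was lower under both stimuli in progenitor-like cells. Its UMIs numbered 5147, 1568 and 2109 in the saline, cold and CL libraries. The levels were 658 CPM (640 to 676), 358 CPM (340 to 376) and 294 CPM (282 to 307), and no pair overlapped. Cold over saline was -0.88 (-0.96 to -0.80), CL over saline -1.16 (-1.23 to -1.09) and CL over cold -0.28. After thinning 51.4%, 35.3% and 26.6% of cells held a Socs3 UMI, against 80.1%, 68.8% and 62.1% before; in B-like cells the thinned shares were 2.52%, 4.16% and 2.92% and the unthinned 3.45%, 6.98% and 3.81%. Unlike Il6, Socs3 was lower under both stimuli in each of clusters 17, 11 and 18. In cluster 17 it was at 642, 360.2 and 223 CPM, with ratios of -0.83 and -1.53 (-1.73 to -1.33). In cluster 18 it was at 712, 305 and 405 CPM, and here the cold library was the lower one, at -1.22 against -0.81 (-0.95 to -0.68). Cluster 22 had 300.4 CPM in saline and 230.5 CPM in CL, and without it the CL ratio of the class was -0.98.

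Of 7 measured members in progenitor-like cells, 1 (Il6) was at least 2-fold lower in the cold, where 4.24% of 11341 genes were beyond 2-fold. In CL 1 of 7 (Socs3) was at least 2-fold lower, where 8.20% of 11774 genes were beyond it. Over the whole class, CL had saline-like Il6 and the lowest Socs3. By cluster this order held in cluster 17 alone of clusters 17, 11 and 18. In cluster 18 CL also had saline-like Il6, but Socs3 was lowest in the cold. In cluster 11 both genes were lower under both stimuli. Within a library they occurred together. Among thinned saline cells with an Il6 UMI 68.6% also had a Socs3 UMI, against 48.2% of those without. The shares were 58.5% and 33.6% in the cold and 46.6% and 22.6% in CL. They are over the whole class, whose clusters differ in both genes, and the part of the clusters was not tested.

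Socs3 and Il6 also respond to the handling of tissue, so 14 early-response genes that dissociation raises, among them Fos, Egr1 and Atf3, were set beside Socs3. In cluster 17 their ratios for cold ran from -0.74 to 0.68 with a median of 0.16, and for CL from -0.76 to 0.71 with a median of 0.14. Socs3 lay below all 14 under both stimuli there. In cluster 18 the medians were -0.21 and -0.29, with 1 gene below Socs3 in the cold and none in CL, and in cluster 11 they were -0.23 and -0.76, with none and 1 below. In cluster 11 all 14 were below saline in CL, the highest at -0.0069, but not in the cold, where the highest was 0.74. In the endothelial-like class all 14 were lower than in saline under both stimuli, with medians of -0.92 for cold and -0.95 for CL. Il6 was not set beside these genes. What part handling had in the progenitor-like or the vascular values was not tested.

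**Figure D4:**
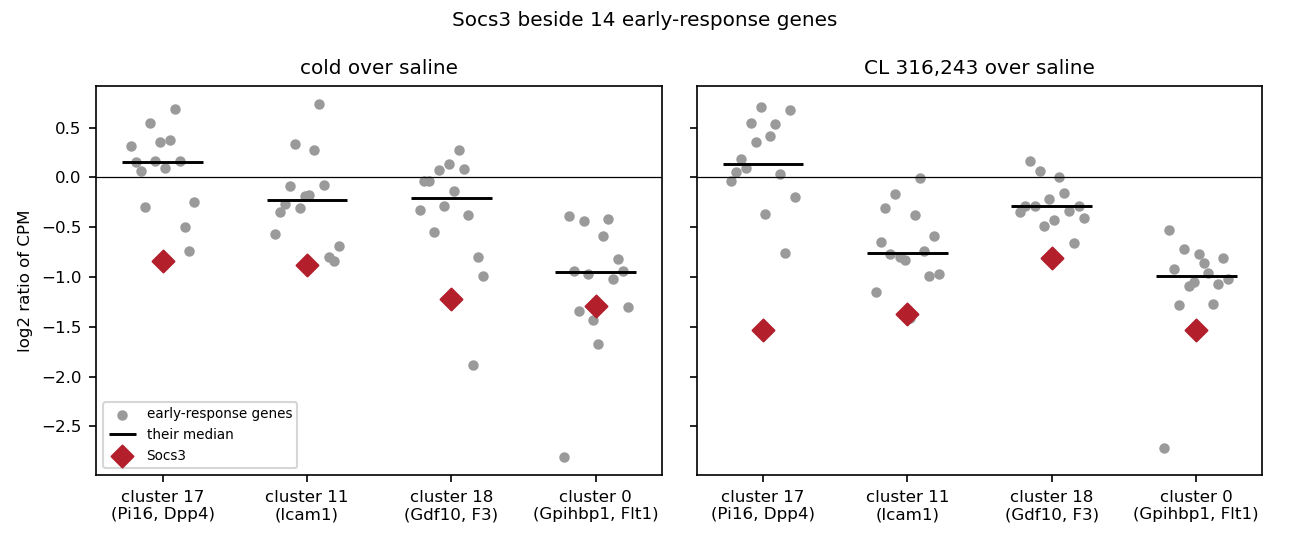
Log2 ratios of CPM over saline for Socs3 (red diamond) and 14 early-response genes (grey points, black bar at their median) in 3 progenitor-like clusters and endothelial-like cluster 0, with cold on the left and CL 316,243 on the right. In cluster 17 Socs3 at -0.83 and -1.53 lies below every grey point, while in cluster 0 it lies among them, with 5 below it in the cold and 1 in CL.

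In endothelial-like cells Socs3 was at 397, 154 and 96.5 CPM (452, 164 and 64 UMIs), ratios of -1.37 (-1.64 to -1.11) for cold and -2.04 (-2.44 to -1.66) for CL. The class was not the same mixture in each library, since cluster 1 gave 111 of the 360 saline cells, 44 of 262 cold and 23 of 267 CL cells. A list of lymph node stromal markers summed to 1167, 285 and 3.02 CPM in the class, so it moved with Socs3, and its part in the result was not tested. Within cluster 0 alone Socs3 was at 261, 107 and 90.1 CPM, ratios of -1.29 and -1.53, and in cluster 1 at 604, 406 and 172 CPM. Of 6 measured members 2 (Il6 and Socs3) were at least 2-fold lower in each comparison, where 9.82% of 8516 genes in the cold and 12.8% of 7934 genes in CL were beyond 2-fold.

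T-like cells stood opposite, with more Socs3 under both stimuli. They held 39 UMIs in 464 saline cells, 117 in 294 cold cells and 24 in 93 CL cells, or 28.6, 77.5 and 74.4 CPM. Ratios were 1.44 (0.90 to 2.0) for cold and 1.38 (0.58 to 2.15) for CL. After thinning 3.78%, 13.9% and 12.5% of T-like cells held a Socs3 UMI, and before it 7.54%, 27.2% and 20.4%. The thinned shares in B-like cells were 2.52%, 4.16% and 2.92%, so the saline T-like cells were little above them. B-like cluster 7 was also higher in the cold, at 27.4 against 13.4 CPM in saline, a ratio of 1.03 (0.31 to 1.79). B-like cluster 8 was level there, at 0.02 (-0.73 to 0.77). In cluster 3, the larger T-like cluster, levels were 37.3, 130.2 and 116 CPM. A B-cell marker list summed to 138, 326 and 245 CPM in the class, the same order of libraries as Socs3. B-like cells held 18.7, 24.3 and 19.7 CPM of Socs3. Progenitor markers summed to 198, 74.8 and 118 CPM in the T-like class. The part of RNA from other cells in the Socs3 values was not tested. In the cold 7.31% of 8175 genes were beyond 2-fold and 1 of 4 members (Socs3) was higher. In CL 12.6% of 6911 genes were, and of 4 members Socs3 was higher and Il6ra lower.

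In plasmacytoid dendritic-like cells, sources of type I interferon, Socs3 was at 111, 66.4 and 21.1 CPM (68, 27 and 7 UMIs), with CL over saline at -2.40 (-3.77 to -1.28). It was 1 of 4 members beyond 2-fold there, beside 11.1% of 5184 genes. Monocyte/macrophage-like cells as a class were at 114, 83.8 and 119 CPM. Saline and CL were near level, and the cold was lower, at -0.44 (-0.81 to -0.09). Their clusters differed. Cluster 15 was lower under both stimuli, at 127, 90.3 and 47.3 CPM. Its ratios were -0.50 (-0.90 to -0.11) for cold and -1.43 (-2.11 to -0.81) for CL. Cluster 12 went from 85.5 CPM in saline to 119 CPM in CL. Schwann-like cells, the glia of fat nerves, were high at 743 CPM in saline and 484 CPM in the cold.

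Stat3, the transcription factor itself, varied little in progenitor-like cells, at 185, 179 and 165 CPM, ratios of -0.05 and -0.16. It was level in monocyte/macrophage-like cells too, at 174, 166 and 166 CPM. Endothelial-like cells were lower under both stimuli, at 315, 199 and 205 CPM, with ratios of -0.66 (-0.91 to -0.41) and -0.62 (-0.91 to -0.33). Natural killer-like cells were higher in CL, at 219, 253 and 391 CPM, 0.84 (0.33 to 1.38), as were type 2 dendritic-like cells, at 129, 160.1 and 189 CPM, 0.56 (0.29 to 0.83). These are levels of its mRNA, and the phosphorylated protein that acts was not measured.

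The remaining genes of the pathway were counted by list, and the lists were chosen with earlier results of these data known. Of the feedback genes Socs1, Socs2, Cish, Pias3 and Ptpn2 in progenitor-like cells, 2 of 5 were at least 2-fold lower in the cold and none higher, beside 4.24% of all genes beyond 2-fold, with a median of -0.70 against 0.08 over all genes. They were Socs1, a further inhibitor of Janus kinases, at 78.9, 29.5 and 52.2 CPM, and Cish, which acts on STAT5 signals, at 13.3, 6.62 and 9.21 CPM. In CL, where 8.20% of all genes were, none of the 5 was beyond 2-fold and the median was -0.47 against 0.07. Of 4 further receptors measured, 1 was at least 2-fold higher in the cold, Il31ra with 11 saline and 13 cold UMIs, a ratio of 1.08 (-0.20 to 2.38) whose interval includes 0. In CL 1 was lower, Cntfr, which binds ciliary neurotrophic factor, at 26.3, 36.5 and 9.49 CPM. Il11ra1, the interleukin-11 receptor, stood at 311, 403 and 549.9 CPM.

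Lifr stood at 244, 337 and 81.8 CPM in monocyte/macrophage-like cells, 294, 181 and 201 CPM in endothelial-like cells, 229, 101 and 208 CPM in plasmacytoid dendritic-like cells and 35.3, 35.6 and 42.0 CPM in progenitor-like cells. Il27, a ligand subunit of the wider family, had 4, 2 and 108 UMIs in monocyte/macrophage-like cells, or 1.21, 2.10 and 7.98 CPM, with CL over saline at 2.72 (1.32 to 4.62). Migratory dendritic-like cells held 5, 19 and 7 Il27 UMIs, or 2.76, 14.7 and 13.6 CPM. There it was higher under both stimuli, at 2.41 (0.94 to 4.19) for cold and 2.30 (0.43 to 4.30) for CL.

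Genes known as STAT3 targets were counted next. This list too was chosen with earlier results of these data known. The counts here and in other classes describe the list and are no test of it against all genes. Of 18 measured for cold, 3 (Saa3, Lcn2 and Hp) were at least 2-fold lower and none higher in progenitor-like cells, beside 4.24% of all genes beyond 2-fold, with a median of -0.54 against 0.08 over all genes. Of 19 measured for CL, 8 were higher and 1 (Bcl6) lower, beside 8.20% of all genes, with a median of 0.39 against 0.07. The higher ones with most UMIs were Saa3, an acute-phase protein, at 62.7 CPM in saline and 2055 CPM in CL, Timp1, a metalloprotease inhibitor, at 88.4 and 834 CPM, Ccl2, a monocyte chemokine, at 235 and 593 CPM, and Lbp, which binds lipopolysaccharide, at 210.4 and 490 CPM. Timp1, Lcn2 and Lbp are also leading genes of cluster 22, which is mostly CL cells. Within cluster 17 alone, 2 of 17 were higher and 1 lower in CL, with a median of -0.06. The 8.20% is a share over the whole class, cluster 22 included. It cannot serve as the share for cluster 17, so these counts stand without one. In B-like cells, Saa3 was at 3.67 CPM in saline and 35.1 CPM in CL, as a measure of its free RNA. So over the whole class in CL, Socs3 was lower while 8 of these other genes were higher. Many of them also answer to NF-κB and other signals.

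Endothelial-like cells had 5 of 16 such targets at least 2-fold lower in the cold and none higher (median -0.76), beside 9.82% of all genes beyond 2-fold. In CL 10 of 17 were lower and 2 higher (median -1.22), beside 12.8% of all genes, the medians over all genes being -0.02. The lower ones with most UMIs in CL were Junb, at 2136 and 867 CPM, Lrg1, which acts on vessel growth, at 324 and 131 CPM, and Cebpb at 198 and 69.4 CPM. In these cells all 14 early-response genes were lower too, under both stimuli. Monocyte/macrophage-like cells in CL had 4 of 18 higher (Saa3, Hp, Lcn2 and Timp1) and Myc lower, beside 15.5% of all genes, with a median of 0.29 against 0.02. In the cold 6 of 16 were lower and none higher, beside 9.42% of all genes, with a median of -0.70 against -0.01. The clusters making up this class differed between libraries, with 600 of 1020 saline and 191 of 213 cold cells in cluster 15. The part of this mixture in the counts of targets was not tested.

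Across the 34 class-and-library groups of at least 50 cells, each member was set beside the genes whose log2(CPM + 10) followed it most closely. These correlations are descriptions over groups that share 3 libraries and have unequal depths. Osmr was followed most closely, by Ehd2 (r = 0.976), Apbb2 (0.975) and Arhgap29 (0.970), and Il6st by 2700081O15Rik (0.864), Atp9a (0.861) and again Arhgap29 (0.857). Il6 was nearest to Abhd11os (0.915), Ror2 (0.896) and Col4a5 (0.894). Osm was nearest to Lilrb4a (0.892), Il1rn (0.860), which encodes the interleukin-1 receptor antagonist, and Lilr4b (0.848). Socs3 was nearest to Stam (0.837), Shisa4 (0.826) and Zfp651 (0.822). For Il6ra (Tep1, 0.779), Lif (Meis3, 0.761) and Stat3 (Tmem2, 0.751) no gene came as close.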

How the data were processed

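The count matrices were used as deposited: whole-number UMI counts per gene and cell barcode, made by the authors with Cell Ranger (version 3.0.2 per the file headers) against mm10, per the submitters' processing notes. Depth per library is the UMI count in cells: 23946693 in saline, 18237988 in cold and 27601394 in CL. With scanpy 1.11.5, barcodes with fewer than 500 genes or over 15% mitochondrial UMIs were removed, as were Scrublet doublets (86, 4 and 64; the 4 in cold are few, so doublets may remain there). Cells were clustered on 2000 variable genes without the members (30 components, 15 neighbours, Leiden resolution 1). Clusters were named from marker lists that needed at least 3 markers; monocyte and macrophage lists, and lymphatic and blood endothelial lists, were merged and a limit on the score was dropped after the clusters were seen. Levels are summed UMIs per 1000000 (CPM) with exact intervals (scipy 1.17.1), thinned shares use 1500 UMIs a cell, and ratios needed 50 cells in each library. Genes with at least 20 UMIs over both libraries were counted past 2-fold. The 8 members are named everywhere, and up to 4 genes of a list past 2-fold, those with most UMIs first. Members and lists were chosen with earlier results of these data known. The intervals were tested only on simulated Poisson counts, the model they assume. Clumping of UMIs in single cells was not simulated. The groups hold 1 sample each. Alternatives covered filters, doublets, resolution, scaling, thinning, the largest cluster and the highest cells; leaving out cluster 22 was added after seeing the data. Promoters are RefSeq's, and gene positions come from GENCODE M21. Of 20 listed STAT3 targets, 1 is not analysed here, and 1 further gene is not reported here.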

Additional observations from a re-analysis of the deposited data

Results flagged for a closer look

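Osm was also present in CL barcodes that the minimum of 500 genes left out. With at most 15% mitochondrial UMIs, 932 such CL barcodes held 32 Osm UMIs, 39.2 CPM (26.8 to 55.3). The saline library had 7 UMIs in 902 barcodes, 8.80 CPM (3.54 to 18.1), and the cold library 3 UMIs in 506 barcodes, 4.41 CPM. What singled this out is a signal outside the measured cells that is above its level in the saline control. The neutrophil genes S100a8 and S100a9 were also highest there in CL, at 1345 and 2726 CPM, against 223 and 280 CPM in saline and 35.3 and 89.6 CPM in the cold. Their part in the Osm level was not tested.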

How the results depend on the processing

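Of 18 ratios past 2-fold, 162 of 164 alternative values kept the direction and 145 stayed past 2-fold. The reversals were Il6 in type 2 dendritic-like cells for CL over saline, from -1.40 to 0.33 with the mean of the cells' own CPM, and Il6 in monocyte/macrophage-like cells for cold over saline, from -1.73 to 0.040 with at most 5% mitochondrial UMIs. Il6 in progenitor-like cells moved for cold over saline from -1.27 to -1.04 at that limit, -1.47 after thinning, -0.46 in the largest cluster and -1.56 without the 5 highest cells of each library, and for CL over saline from -0.03 to -0.21 at resolution 2. Il6 in monocyte/macrophage-like cells in CL moved from 2.84 to 2.02 at resolution 0.5 and 3.64 in the largest cluster, and Osm there from 1.21 to 0.72 with at most 5% mitochondrial UMIs, 1.71 after thinning and 0.92 in the largest cluster. Socs3 in CL moved in progenitor-like cells from -1.16 to -1.37 at resolution 2, -1.07 with at most 5% mitochondrial UMIs, -1.36 after thinning, -1.53 in the largest cluster and -0.98 without cluster 22, and in endothelial-like cells from -2.04 to -1.53 in the largest cluster. The causes were not tested. The share of genes beyond the fold in progenitor-like cells in the cold, 4.24%, was 1.98% with at least 50 UMIs and 15.5% at 1.5-fold. Depth limits Lif, Il6 outside progenitor-like, mural-like and CL myeloid cells, and every class under 50 cells.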

Other observations

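With a minimum of 200 genes, neutrophil-like cells numbered 17 in saline, 34 in cold and 158 in CL, and held 7, 10 and 33 Osm UMIs, 418, 207 and 235 CPM. Socs3 had 3, 2 and 33 UMIs in them and Il6ra 5, 8 and 30. The minimum of 500 genes left 2, 28 and 23 neutrophil-like cells, and so removed most of them in saline and CL but not in the cold. Mast-like cells, only 7, 7 and 4 in number, held 11, 5 and 1 Osm UMIs and 5, 0 and 0 Il6 UMIs; 10 of the 11 saline Osm UMIs came from 1 cell.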
